A study of Mus musculus with 8 samples.

Results

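The 7 globin genes described here are Hba-a1, Hba-a2, Hbb-bs, Hbb-bt, Ngb, Cygb and Mb, taken by gene symbol from the 55213 genes of the count tables. They were listed by name, and the list was drawn up with the difference between the diets in these same libraries already known, so their levels and differences below were used in their selection and are given as a description. Where the number of globins past a threshold is given, it is set beside the number over all genes and supports nothing. Whole retinas were sequenced from 8 germ-free (GF) adult male C57B1/6 mice, which have no gut microbiome. From 7 to 15 weeks of age, 4 mice received a normal diet (GF-ND, mice 9, 10, 11 and 12) and 4 a high-fat diet with 23% saturated fat (GF-HFD, mice 13, 15, 16 and 19), for 8 weeks. Each library is 1 retina of 1 mouse. All mice were germ-free, so diet was the only labelled difference between the groups, and no colonised mice were compared here.

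Globins are small haem proteins that bind oxygen. Alpha and beta chains pair in the haemoglobin of red blood cells, whose precursors make the transcripts and whose youngest circulating forms still carry some. Neuroglobin (Ngb) is found in neurons and is well known in the retina, cytoglobin (Cygb) is found in many tissues including fibroblast-like cells and neurons, and myoglobin (Mb) stores oxygen in heart and striated muscle. A whole dissected retina holds neurons, glia, vessels and whatever blood is left in them, and in such bulk RNA fewer cells of a type cannot be told apart from less RNA per cell.

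The libraries contained 39258006 to 44357518 counts assigned to genes. Rod photoreceptor genes, the defining transcripts of the tissue, summed to 35400 to 59300 CPM (counts per 1000000 of the scaled library total) in GF-ND and 60300 to 77500 CPM in GF-HFD retinas (10 of 10 higher, median log2 fold change 0.31). GF-ND mouse 11 and GF-HFD mouse 19 stood apart by their lens genes, which took 5.50% and 1.04% of counts against 0.0154% to 0.147% in the other 6. Over the 26900 genes with at least 10 counts in all, edgeR called 0 (0%) at an adjusted p under 0.05, with a smallest adjusted p of 0.649, while 1985 (7.38%) had an unadjusted p under 0.05, DESeq2 called 53 and limma-voom called 0. All 7 globins passed the count minimum. Of the 7, edgeR called 0, DESeq2 called 3 and limma-voom called 0, and 4 had an unadjusted p under 0.05.

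The alpha genes lie on chromosome 11, Hba-a1 at 32283511-32284465 and Hba-a2 at 32296489-32297298, both on the plus strand of GRCm38. The beta genes lie on the minus strand of chromosome 7, Hbb-bs at 103826534-103828096 and Hbb-bt at 103812524-103813996. Each pair is a near-identical copy. The coding sequences are 429 bases in the alpha genes and 444 bases in the beta genes, and each pair differs at 1 coding base. The stretch around that base is shown because it limits which reads can be assigned to one copy. The capital marks the only difference, C381T from Hba-a1 to Hba-a2 and C417T from Hbb-bs to Hbb-bt, with positions counted from 1 at the A of the start codon.
Hba-a1 coding bases 351 to 411: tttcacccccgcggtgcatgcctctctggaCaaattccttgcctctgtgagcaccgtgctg
Hba-a2 coding bases 351 to 411: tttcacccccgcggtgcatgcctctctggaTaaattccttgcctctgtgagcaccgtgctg
Hbb-bs coding bases 387 to 444: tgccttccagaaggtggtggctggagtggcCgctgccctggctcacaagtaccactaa
Hbb-bt coding bases 387 to 444: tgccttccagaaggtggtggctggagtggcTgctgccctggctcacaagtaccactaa

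The copies are told apart by that coding base and by their untranslated ends. Of all 100-base windows of the annotated transcript, 43.5% in Hba-a1, 25.5% in Hba-a2, 37.4% in Hbb-bs and 45.2% in Hbb-bt do not occur in the other copy. How reads that fit both copies were counted was not stated, so the split within a pair is uncertain, and the pair sums are given beside the single genes. If such reads were left out, the blood globin levels would be too low against those of other genes.

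The promoters of the blood globins are shown as a description of these genes, and their part in the levels was not tested. The sequences are from RefSeq on GRCm38.p6, whose table matched 5 of the 7 globins. The windows searched run from 250 bases before to 50 bases after the RefSeq start site, and the longest part before that site that lies outside any GENCODE UTR is printed. Capitals mark the CACCC box, the letters GATA, the CCAAT box and the letters TATAA, on either strand. The run of Hbb-bt ends inside a forward CCAAT that lies directly beside a reverse one. The windows of Hba-a1 and Hba-a2 share an unbroken stretch of 297 of 300 bases, so only Hba-a2 is printed, whereas the longest stretch shared by Hbb-bs and Hbb-bt is 14 bases.
Hba-a2 at chr11:32296242-32296488, plus strand: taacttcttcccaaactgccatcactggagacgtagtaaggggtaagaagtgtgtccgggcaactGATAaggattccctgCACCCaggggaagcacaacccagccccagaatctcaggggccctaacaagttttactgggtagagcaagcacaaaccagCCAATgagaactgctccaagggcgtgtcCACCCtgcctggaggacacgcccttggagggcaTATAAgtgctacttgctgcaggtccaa
Hbb-bs at chr7:103827929-103828011, minus strand: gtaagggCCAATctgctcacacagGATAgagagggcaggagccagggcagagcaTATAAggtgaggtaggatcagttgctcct
Hbb-bt at chr7:103813997-103814173, minus strand: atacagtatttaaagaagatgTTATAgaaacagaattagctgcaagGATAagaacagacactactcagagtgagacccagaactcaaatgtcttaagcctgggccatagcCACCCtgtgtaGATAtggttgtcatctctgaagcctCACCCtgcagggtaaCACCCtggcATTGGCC

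A TATAA began 27 bases before the start site in Hba-a1, 30 in Hba-a2, 29 in Hbb-bs and 28 in Hbb-bt. Each of the 4 windows also held at least 1 CACCC, 1 GATA and 1 CCAAT. These letters are common: of 32851 mouse promoters of the same length, 57.5% hold CACCC, 57.9% GATA, 37.4% CCAAT and 24.9% TATAA. The matches are a description of the letters and not of bound sites. Some lie outside the printed stretches, such as the TATAA 28 bases before the start site of Hbb-bt. The TATAA marked in Hbb-bt is the reverse match 229 bases before that site. The only CACCC of Hbb-bs, 90 bases before its start site, is also not printed.

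The 4 blood globins were higher in GF-HFD than in GF-ND retinas, by 2.71-fold in their summed level. The sum was 11.1, 7.04, 8.82 and 4.55 CPM in GF-ND mice 9, 10, 11 and 12 and 14.8, 35.6, 16.1 and 18.7 CPM in GF-HFD mice 13, 15, 16 and 19. The lowest GF-HFD retina was above the highest GF-ND retina. The means were 7.87 ± 2.76 and 21.3 ± 9.69 CPM (SD, n = 4 each). The sum differed by 1.44 on the log2 scale, and by 1.07 without GF-HFD mouse 15, which had the highest value of all.

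Hbb-bs was the beta gene with the higher values. In the mouse order above, it had 7.50, 4.78, 5.79 and 2.61 CPM in GF-ND and 10.1, 22.9, 9.25 and 11.8 CPM in GF-HFD mice. The ranges did not overlap, and GF-HFD mouse 15 was again highest. The fitted log2 fold change was 1.39 (SE 0.36). Hbb-bt, the other adult beta gene, had 0.916, 0.788, 0.834 and 0.502 CPM in GF-ND and 1.60, 3.66, 1.19 and 2.41 CPM in GF-HFD mice. Here too the ranges did not overlap, and the log2 fold change was 1.54 (SE 0.37).

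Hba-a1, the alpha gene with the higher values, had 2.34, 1.38, 1.79 and 1.10 CPM in GF-ND and 2.55, 7.22, 4.72 and 3.36 CPM in GF-HFD mice. Its ranges were separated by the small gap between GF-ND mouse 9 and GF-HFD mouse 13. The log2 fold change was 1.43 (SE 0.35). Hba-a2 was low, with 13, 4, 17 and 14 counts in GF-ND and 19, 78, 41 and 48 counts in GF-HFD mice, or 0.288 ± 0.132 and 1.09 ± 0.580 CPM (SD, n = 4 each). Its ranges came close, at 0.405 CPM in GF-ND mouse 11 and 0.454 CPM in GF-HFD mouse 13. The log2 fold change was 1.91 (SE 0.51).

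In all, 4 of the 7 globins had a GF-HFD range above the GF-ND range, beside 616 of the 26900 genes tested (2.29%). Past both a log2 fold change of 1 and an unadjusted p of 0.01, in the GF-HFD direction, were 4 of the 7, beside 23 of all genes tested (0.0855%). Both counts rest on the contrast known when the genes were listed, and nothing further is read from them. Of the 7, 6 had a higher fitted level in GF-HFD retinas, where 12454 of all 26900 genes did, and the median log2 fold change of all genes was -0.03. With the counts of each pair summed before the fit, which removes the uncertain split, the log2 fold change was 1.52 (SE 0.35) for alpha and 1.41 (SE 0.35) for beta. Leaving out each mouse in turn gave 1.10 to 1.65 for Hba-a1, 1.54 to 2.17 for Hba-a2, 1.01 to 1.62 for Hbb-bs and 1.19 to 1.75 for Hbb-bt, and the lowest value of each was without GF-HFD mouse 15.

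**Figure D1:**
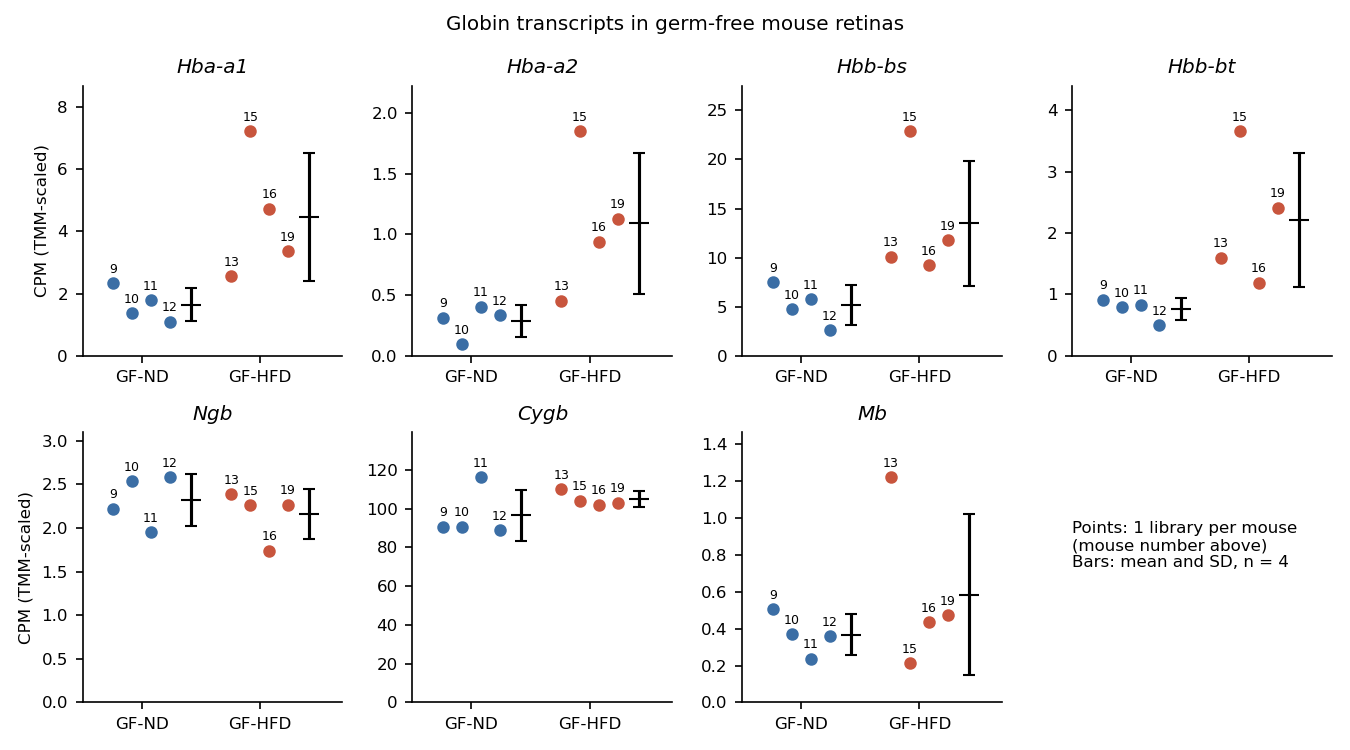
CPM (y axes, each from 0) of the 7 globin genes in 4 GF-ND (blue) and 4 GF-HFD (red) retinas, with the mouse number above each point and the mean and SD of each diet as bars. The 4 blood globins have no overlap between diets and are highest in GF-HFD mouse 15, Ngb and Cygb overlap, and Mb has 1 high library, GF-HFD mouse 13.

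**Figure D2:**
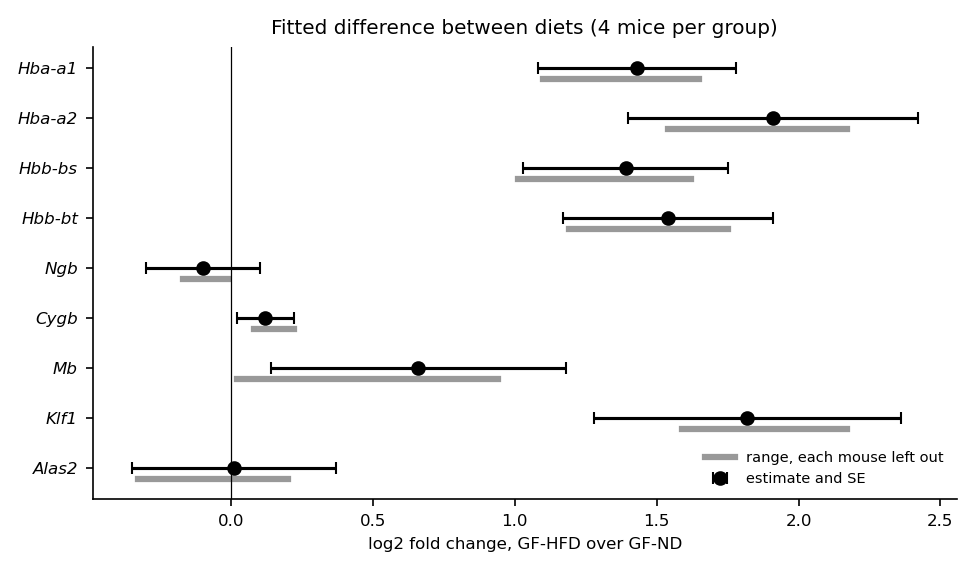
Fitted log2 ratio between the diets, GF-HFD against GF-ND (x axis), for the 7 globins and 2 erythroid genes, with the SE as a bar and the range with each mouse left out as a grey line. The blood globins run from 1.39 to 1.91, Ngb, Cygb and Alas2 lie near 0, and the grey line of Mb reaches 0.02.

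The proportions among the 4 blood globins varied more between mice than between diets. Alpha transcripts made up 24.0%, 21.0%, 24.9% and 31.6% of the blood globin counts in GF-ND and 20.4%, 25.5%, 35.1% and 24.1% in GF-HFD mice. The means were 25.3% ± 4.47 and 26.3% ± 6.29 (SD, n = 4 each), and GF-HFD mouse 16 had the highest share (95% Wilson interval 31.7% to 38.7%). Its level of Hbb-bs was the lowest of the 4 GF-HFD retinas while its Hba-a1 was the second highest. The share of Hba-a2 in the alpha counts ran from 6.67% to 23.3% in GF-ND and from 15.1% to 25.3% in GF-HFD mice. The lowest of these, in GF-ND mouse 10, rests on 4 counts of 60 (2.62% to 15.9%). The share of Hbb-bt in the beta counts was narrower, 13.4% ± 2.24 and 13.9% ± 2.30 (SD, n = 4 each), with the lowest at 10.9% and the highest at 17.0%. For each of these 3 shares the diets overlapped. The intervals cover counting error only, and they are too narrow if both mates of a read pair were counted separately. Among low counts the ratio of even to odd values was 1.91 to 2.36.

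**Figure D3:**
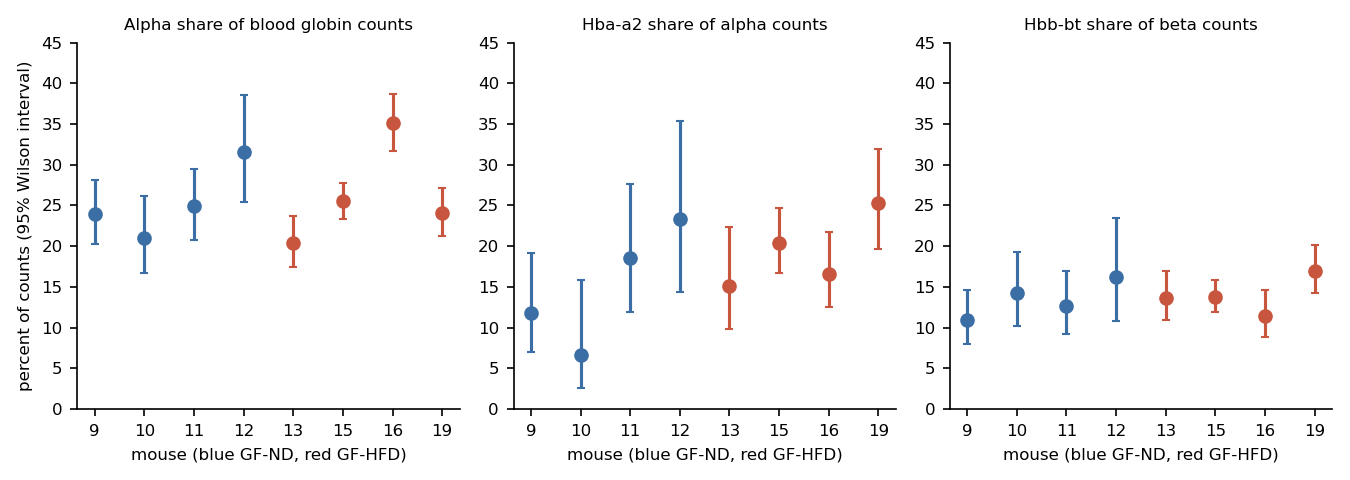
Share of alpha transcripts in the blood globin counts, of Hba-a2 in the alpha counts and of Hbb-bt in the beta counts (y axes, percent) in each mouse, with 95% Wilson intervals. The diets overlap in all 3 panels, and GF-HFD mouse 16 has the highest alpha share at 35.1%.

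Of the 8 other globin genes looked up, the embryonic and fetal-type Hba-x, Hbb-y, Hbb-bh0, Hbb-bh1 and Hbb-bh2 had 0 counts in every library, which allows up to 0.0687 to 0.0739 CPM per library (3 counts). The theta-like Hbq1a had 7 counts over the 8 libraries and was not tested. Hbq1b had 14 counts in all, and its log2 fold change was -2.38 (SE 1.58). Androglobin (Adgb), a large globin of ciliated tissues and testis, had 8, 13, 19 and 8 counts in GF-ND and 14, 3, 29 and 51 in GF-HFD mice. Its ranges overlapped (log2 fold change 0.97, SE 0.69, edgeR adjusted p = 0.724). No embryonic alpha-like or beta-like chain was thus detected at this depth.

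The genes that red blood cell precursors use beside globin did not show 1 common direction. Klf1, the erythroid factor that binds CACCC letters in globin promoters, lies at 84901928-84905291 on chromosome 8. It had 2, 7, 2 and 6 counts in GF-ND and 12, 21, 13 and 17 in GF-HFD mice. All 4 GF-HFD values were higher, with GF-HFD mouse 15 again highest (log2 fold change 1.82, SE 0.54), at an unadjusted p of 0.00715 and an edgeR adjusted p of 0.649. Of 7 erythroid regulators, 5 were tested, with 4 higher and 1 lower, a median log2 fold change of 0.20, and 1 (Klf1) at an unadjusted p under 0.05. Gata1, with 5 counts in all, and Gfi1b, with 0 in every library, were too low to be tested, while Tal1 had 142 counts in all (log2 fold change 0.01, SE 0.43) and Nfe2 had 28 (-1.31, SE 0.86). The most abundant of the list, Zfpm1 (9.28 ± 1.19 and 11 ± 0.837 CPM) and Epor, the erythropoietin receptor (0.946 ± 0.166 and 1.09 ± 0.328 CPM), had log2 fold changes of 0.24 (SE 0.13) and 0.20 (SE 0.28).

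Alas2, the erythroid enzyme that begins haem synthesis, had 64, 52, 39 and 80 counts in GF-ND and 63, 98, 35 and 45 in GF-HFD mice. The diets overlapped fully (log2 fold change 0.01, SE 0.36), although GF-HFD mouse 15 had the highest value here as well. There were 2.38 to 9.49 blood globin counts for each Alas2 count in GF-ND retinas, against 9.81 to 20.1 in GF-HFD retinas. Of the 9 late erythroid genes, 7 were tested, with 3 higher and 4 lower and a median of -0.09. Bpgm, which makes the 2,3-bisphosphoglycerate that tunes oxygen release, was the only one at an unadjusted p under 0.05 (57.7 ± 4.40 and 69.7 ± 7.59 CPM, log2 fold change 0.27, SE 0.10, adjusted p = 0.649). Bnip3l, a mitophagy receptor expressed well beyond red cells, was the most abundant, at 188 ± 79.4 and 177 ± 15.4 CPM.

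Red cell membrane genes were mostly low, and 1 library stood out in their sum. Of 11, 7 were tested, with 3 higher and 4 lower, a median of -0.21 and none at an unadjusted p under 0.05. The median was 0.36 without GF-ND mouse 11, whose summed level was 613 CPM against 226 to 248 CPM in the other GF-ND and 257 to 351 CPM in the GF-HFD mice. Among the defining members, Kel and Icam4 had 0 counts in every library, and Slc4a1, the anion exchanger band 3, had at most 4 counts in any library. The abundant members, beta-spectrin (Sptb, 259 ± 172 and 220 ± 39.4 CPM) and ankyrin (Ank1, 66.9 ± 7.29 and 70.5 ± 5.23 CPM), are also expressed in neurons. Over the erythroid regulator, membrane and late lists, edgeR, DESeq2 and limma-voom each called 0 genes. Kel, Icam4, Slc4a1, Gata1, Gfi1b, Tal1, Nfe2 and Alas2 were picked from these lists after their values had been seen.

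Genes that clear free haemoglobin and haem were split evenly, with 4 of 8 higher and 4 lower (median -0.01, and 0.19 without GF-ND mouse 11). None had an unadjusted p under 0.05, and edgeR, DESeq2 and limma-voom each called 0. The most abundant were Lrp1, a receptor for haem bound to haemopexin among many ligands (241 ± 59.9 and 211 ± 26.6 CPM), and the constitutive haem oxygenase Hmox2 (29.4 ± 4.63 and 31.1 ± 1.41 CPM). The inducible haem oxygenase Hmox1, named after its values had been seen, had 70, 84, 2380 and 78 counts in GF-ND and 111, 128, 172 and 170 in GF-HFD mice. GF-ND mouse 11 was far above all others, and the log2 fold change was -2.19 (SE 1.08) with it and 0.87 (SE 0.21) without it. Of the 6 cytochrome b5 and reductase genes that keep globin iron reduced, 5 were higher and 1 lower (median 0.09), none at an unadjusted p under 0.05. EdgeR, DESeq2 and limma-voom called 0 of them, and without GF-ND mouse 11 edgeR called 1 of them and 421 of all genes.

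Other cells of the blood and vessel wall were looked at in the same libraries. Of 8 neutrophil genes, 4 were tested, with 1 higher and 3 lower (median -0.56). Their summed level was 0.394 to 0.675 CPM in GF-ND and 0.213 to 0.573 CPM in GF-HFD mice. Mpo, a gene of their precursors, had 0 counts in every library, S100a8 had 4 counts in all, and S100a9 had 28 (log2 fold change 1.23, SE 1.30). Of 7 lymphocyte genes, 3 were tested (2 higher, 1 lower, median 0.08), the sums were 0.263 to 0.862 and 0.275 to 0.692 CPM, and Cd3d was at 0 throughout. Platelet genes had 2 of 6 higher and 4 lower (median -0.37), with sums of 2.03 to 4.31 and 2.11 to 2.84 CPM. The only gene of these 3 lists at an unadjusted p under 0.05 was platelet factor Pf4, with 0, 2, 0 and 0 counts in GF-ND and 0, 10, 8 and 36 in GF-HFD mice. Mpo, S100a8, S100a9, Cd3d and Pf4 were named after their values had been seen. White cell and platelet transcripts were thus low in both diets, with overlapping sums. Endothelial genes had 9 of 10 higher (median 0.24, 2 at an unadjusted p under 0.05), with sums of 278 to 376 CPM in GF-ND and 354 to 411 CPM in GF-HFD mice. The pericyte list had 7 of 8 higher (median 0.33, none at an unadjusted p under 0.05), with sums of 63.0 to 117 and 66.2 to 95.3 CPM. EdgeR called 0 genes of these 5 lists, as did DESeq2 and limma-voom. Their part in the blood globin difference was not tested, and the amount of blood left in each retina was not measured.

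Per exon length, a scale that makes genes more comparable, Cygb had the highest globin values in both diets. The blood globins would be too low here if reads that fit both copies were left out. Their rank beside Cygb, Ngb and Mb is therefore uncertain. In CPM per kilobase of exon, the GF-ND means were 41.4 for Cygb, 6.73 for Hbb-bs, 2.03 for Hba-a1, 1.35 for Ngb, 1.08 for Hbb-bt, 0.432 for Hba-a2 and 0.247 for Mb. Cygb was above Hbb-bs, and Hbb-bs above Hba-a1, in every library, while Hba-a1 and Ngb, Ngb and Hbb-bt, and Hba-a2 and Mb overlapped. In GF-HFD the order was Cygb at 44.9, Hbb-bs at 17.6, Hba-a1 at 5.49, Hbb-bt at 3.15, Hba-a2 at 1.64, Ngb at 1.26 and Mb at 0.392. The mean of Ngb lay above those of Hbb-bt and Hba-a2 in GF-ND and below those of all 4 blood globins in GF-HFD, though its range overlapped that of Hba-a2. Among 26296 genes with a length and counts, Cygb was above 97.0%, Hbb-bs above 85.1%, Ngb above 51.6% and Mb above 34.6%.

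**Figure D4:**
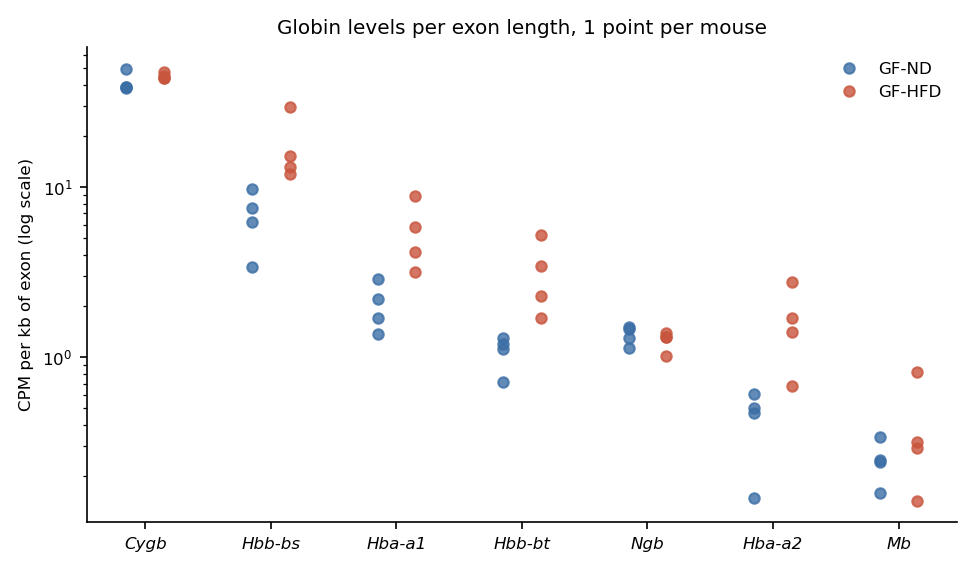
CPM per kilobase of exon (y axis, log scale) of the 7 globins in each GF-ND (blue) and GF-HFD (red) retina. Cygb is highest in all 8 retinas, and the 4 blood globins are shifted up in GF-HFD while Ngb and Cygb are not shifted by a comparable amount.

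Neuroglobin, a globin of neurons, had overlapping values in the diets. Ngb lies at 87097531-87102539 on the minus strand of chromosome 12 and overlaps no other gene. It had 92, 103, 82 and 108 counts in GF-ND and 100, 95, 76 and 96 in GF-HFD mice, or 2.32 ± 0.295 and 2.16 ± 0.289 CPM (SD, n = 4 each). The diets overlapped, with the lowest value in GF-HFD mouse 16 and the highest in GF-ND mouse 12. The log2 fold change was -0.10 (SE 0.20), and -0.17 to -0.01 with each mouse left out. Its spread within a diet was 12.7% and 13.3% of the mean, against 23.7% to 45.9% in GF-ND and 45.8% to 53.0% in GF-HFD for the blood globins. The blood globins had 3.51 ± 1.5 counts for each Ngb count in GF-ND retinas and 9.86 ± 4.15 in GF-HFD retinas (SD, n = 4 each). Genes of retinal ganglion cells, neurons known to hold neuroglobin, had 9 of 9 higher values (median 0.23, 1 at an unadjusted p under 0.05, 0 called by edgeR, DESeq2 or limma-voom), with sums of 733 to 1020 CPM in GF-ND and 922 to 1040 CPM in GF-HFD mice.

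Cytoglobin was far more abundant than neuroglobin, and GF-ND mouse 11 lay far from the other 3 GF-ND retinas. Cygb lies at 116645595-116654313 on the minus strand of chromosome 11. It had 90.6, 90.6, 116 and 88.7 CPM in GF-ND and 110, 104, 102 and 103 CPM in GF-HFD mice. GF-ND mouse 11 was the highest of all 8, and the other 3 GF-ND retinas were below every GF-HFD retina. The means were 96.5 ± 13.1 and 105 ± 3.97 CPM (SD, n = 4 each), with a log2 fold change of 0.12 (SE 0.10). Without GF-ND mouse 11, the retina with the most lens RNA, it was 0.22 (SE 0.07) and the diets did not overlap. Lens genes, lower in 11 of 11 with a median of -2.52, had a median of 2.33 without that retina, and pigment epithelium genes (5 of 8 higher) had 1.32 and 3.77. The number of globins with a GF-HFD range above the GF-ND range was then 5, beside 2553 of the 26900 genes in the same 7 libraries. With GF-ND mouse 11 kept, it was 616 of the 26900 genes (2.29%), so such separation became more common over all genes without that retina.

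Cygb shares 8.62% of its exon bases with the photoreceptor gene Prcd on the opposite strand. The library kit is not stated to keep the strand, so reads there cannot be told apart. Prcd, named for this overlap, had 174 ± 38.6 and 213 ± 26.4 CPM (SD, n = 4 each), with the lowest value, 116 CPM, in GF-ND mouse 11. The part of such reads in the Cygb counts was not tested. Fibroblast genes, whose cells often hold Cygb, had 7 of 10 higher (median 1.22, 3 at an unadjusted p under 0.05). Their summed level was 22.8, 83.5, 292 and 14.0 CPM in GF-ND and 17.8, 68.7, 212 and 334 CPM in GF-HFD mice. Their part in the Cygb level was not tested. EdgeR and limma-voom called 0 of the fibroblast genes and DESeq2 called 1.

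Myoglobin was the least abundant of the 7 globins per exon length, and 1 library lay above all others. Mb lies at 77015487-77050670 on the minus strand of chromosome 15. It had 21, 15, 10 and 15 counts in GF-ND and 51, 9, 19 and 20 in GF-HFD mice, or 0.506, 0.369, 0.238 and 0.359 CPM and 1.22, 0.214, 0.435 and 0.473 CPM. GF-HFD mouse 13 was highest and GF-HFD mouse 15, the retina richest in blood globins, was lowest. The means were 0.368 ± 0.110 and 0.585 ± 0.437 CPM (SD, n = 4 each), with a log2 fold change of 0.66 (SE 0.52). Without GF-HFD mouse 13 it was 0.02 (SE 0.46), and without GF-HFD mouse 15 it was 0.94.

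Skeletal muscle genes stood out in the same library. Their summed level was 49.6 CPM in GF-HFD mouse 13, 7.58 to 10.1 CPM in the other GF-HFD and 8.95 to 18.1 CPM in the GF-ND mice. Of 13, 12 were tested, with 10 higher and 2 lower, 4 at an unadjusted p under 0.05 and 0 called by edgeR, DESeq2 or limma-voom. The median log2 fold change was 1.79, and -0.17 without GF-HFD mouse 13. Skeletal actin (Acta1), chosen after its values had been seen, had 358 counts in that library and 38 to 74 in the other 7. Slow and cardiac muscle genes, where myoglobin is richest, had 7 of 10 higher (median 0.20), with overlapping sums of 21.6 to 24.4 and 22.4 to 28.5 CPM. How much of the Mb signal came from muscle attached to the retina was not tested.

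Reads of 2 opposite-strand neighbours can also fall on Mb, the antisense gene Gm49540 over 412 exon bases (27.6% of Mb) and Apol6 over 64 (4.29%). Gm49540 had 15, 10, 3 and 2 counts in GF-ND and 5, 2, 3 and 2 in GF-HFD mice. Apol6 had 0 to 13 counts in each library. The part of such reads in the Mb counts was not tested.

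**Figure D5:**
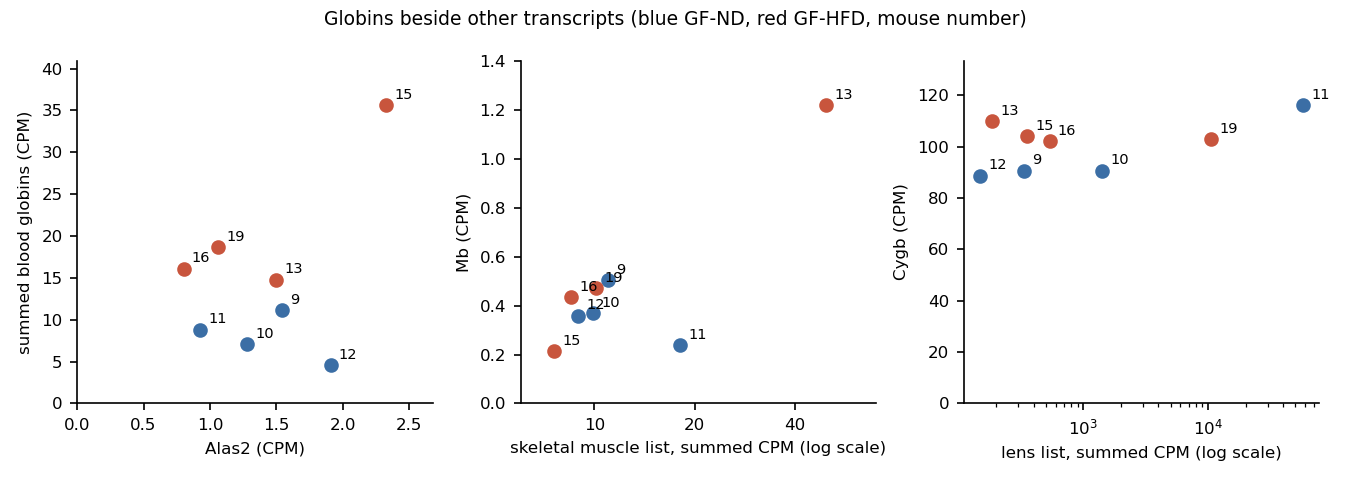
Summed blood globins against Alas2, Mb against the summed skeletal muscle genes (x axis log scale) and Cygb against the summed lens genes (x axis log scale), all in CPM, 1 point per mouse (blue GF-ND, red GF-HFD). In summed blood globins every GF-HFD point lies above every GF-ND point, and the diets overlap in Alas2. GF-HFD mouse 13 is alone at the top for Mb and muscle, and GF-ND mouse 11 is highest for Cygb and lens.

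Hypoxia-responsive genes, part of the oxygen-handling setting of these globins, showed no shared direction. Of 10, 4 were higher and 6 lower (median -0.04, and 0.15 without GF-ND mouse 11). None had an unadjusted p under 0.05, and 0 were called by edgeR, DESeq2 or limma-voom. The most abundant were lactate dehydrogenase A (Ldha, 998 ± 142 and 1190 ± 138 CPM) and the glucose transporter Slc2a1 (210 ± 58.7 and 244 ± 44.4 CPM), with log2 fold changes of 0.26 (SE 0.13) and 0.22 (SE 0.19).

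The genes whose within-diet pattern was most like each globin were found among 13342 genes by the root mean square (RMS) difference of log2 CPM, each diet centred on its mean, over the 8 libraries. For the summed blood globins the nearest was Vxn (0.198), then Slc6a19 (0.239) and Ocln (0.264), where a flat profile would give 0.484. No red cell gene was among these 3. For Ngb they were Cdk20 (0.0622), Pcdhga12 (0.0634) and Galt (0.0709), against 0.167 for a flat profile. For Cygb they were Csnk1a1 (0.0208), Axin2 (0.0263) and Slc45a4 (0.0278), against 0.118. Csnk1a1, a casein kinase, shares with Cygb the highest value in GF-ND mouse 11 (391 CPM, against 293 to 303 CPM in the other GF-ND mice). For Mb they were F2rl3 (0.296), Spag4 (0.319) and Trim15 (0.350), against 0.622, and F2rl3 was also highest in GF-HFD mouse 13, at 2.22 CPM. The best of 13342 candidates over 8 libraries is close by selection, and the likeness is a description only.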

How the data were processed

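Whole-retina RNA was measured in 8 libraries, 4 GF-ND and 4 GF-HFD. The authors aligned the read pairs with STAR 2.4.2 to GRCm38 and obtained gene-level counts by symbol from featureCounts (Subread 1.4.6-p1), and the deposited values are raw counts without scaling. Strand, multi-mapping and pair settings were not given in the sources used here. Counts were tested with edgeR 4.0.16 in R 4.3.3 (TMM, quasi-likelihood test, a minimum sum of 10 counts, Benjamini-Hochberg adjustment across the genes kept), with DESeq2 1.42.0 and limma-voom 3.58.1 as alternatives. CPM used TMM-scaled totals, and log2 CPM a prior count of 2. Positions and exon lengths were taken from GENCODE vM21 and promoters from RefSeq. The study counted on another GENCODE release, so values per exon length divide counts by lengths of a different annotation. The globins and the 19 gene lists (170 genes) were chosen with earlier results of these data known. Named were the globins, the 2 most abundant genes of a list, erythroid and clearance genes with an unadjusted p under 0.01, and the 3 genes nearest to a globin pattern with a mean of at least 1 CPM, with other names marked. Low counts carry large counting error: 3 counts correspond to 0.0687 to 0.0739 CPM. The scripts were tested on simulated data. One listed gene is not reported here.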

Additional observations from a re-analysis of the deposited data

Results flagged for a closer look

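In 6 of the 56 groups of 4 values checked, 1 library lay far from the other 3 by Dixon's ratio of its gap to the range (critical value 0.829), where chance marks about 1 group in 20. Cygb stood at 116 CPM in GF-ND mouse 11 and at 88.7 to 90.6 CPM in the other GF-ND mice. The same retina had 613 CPM of red cell membrane genes (226 to 248 CPM in the others), 57700 CPM of lens genes (149 to 1420 CPM) and 901 CPM of pigment epithelium genes (38.4 to 57.1 CPM). Of the 613 CPM, 517 CPM were Sptb, which is also expressed in neurons. Lens genes were also high in GF-HFD mouse 19, at 10500 CPM against 187 to 537 CPM. Skeletal muscle genes reached 49.6 CPM in GF-HFD mouse 13 and 7.58 to 10.1 CPM in the other GF-HFD mice, and Mb was highest in that library. None of the 4 blood globins had such a library in either diet, but GF-HFD mouse 15 came close. Its ratio was 0.815 for Hbb-bs and 0.812 for the summed blood globins.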

How the results depend on the processing

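For each of the 7 globins the log2 fold change kept its direction in 18 alternative settings, and the values ran from 0.08 to 0.23 for Cygb, from 0.02 to 0.94 for Mb and from -0.20 to -0.01 for Ngb. The log2 ratio of the summed blood globins was 1.07 to 1.65 with each mouse left out, lowest without GF-HFD mouse 15. The number of globins with diets that did not overlap was 4 or 5, and 5 only where GF-ND mouse 11 was left out. Without that mouse, 2553 of the 26900 genes had a GF-HFD range above the GF-ND range, against 616 (2.29%) with it. Nothing further is read from these counts. Over all genes, the count at an adjusted p under 0.05 was 0 in edgeR, 53 in DESeq2, 55 without the 2 lens-rich libraries, and 0 to 421 with each mouse left out, the highest without GF-ND mouse 11. The 123 genes past an unadjusted p of 0.01 and a log2 fold change of 1 in either direction became 200 in DESeq2, 294 without the 2 lens-rich libraries and 65 to 353 with each mouse left out. The lowest count was without GF-ND mouse 10, the highest without GF-ND mouse 11, and the count was 76 without GF-HFD mouse 19. The cause of these shifts was not tested. The list medians, and other genes, without single mice were added after the data had been seen. No paired analysis was possible because the diets share no mouse number. Depth limits Hba-a2, Mb and Klf1, with under 25 counts in most libraries.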
